A study of Rattus norvegicus with 6 samples.

Results

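The genes described here are 44 rat genes whose products build the mitotic spindle, attach chromosomes to it, hold or release the cell at the spindle checkpoint, or divide the cell, chosen by name and without cyclins and kinesins. Of these, 34 had at least 1 array probe whose RefSeq transcript belonged to them, with 57 probes in all, out of 15284 genes that could be named on the array. All 34 had a probe that passed the filter on dim spots, and 32 of them were well above background on all 3 control arrays as well as after treatment. The other 10 had no probe matched by transcript and are left out: Bub1b, Cenpe, Cenpk, Spc24, Melk, Cdc25c, Ect2, Anln, Top2a and Mki67. Renal cortex was taken from male rats of the Sprague-Dawley stock Crl:CD(SD), which were 5 weeks old when purchased. Water was given to 3 animals for 4 weeks (the controls, labelled VC), and the other 3 received N-nitrosodimethylamine (NDMA) at 4 mg/kg/day for the same 4 weeks. NDMA is a nitrosamine that enzymes of the body oxidise to a product that methylates DNA. Each animal's total RNA was labelled with Cy3 and hybridised to 1 Agilent array, and whole cortex was measured, so more dividing cells and more RNA per cell cannot be told apart.

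Mitosis separates copied chromosomes in a fixed order. Kinetochores assemble on centromeres and bind spindle microtubules, the checkpoint kinases keep the anaphase-promoting complex inactive until each chromosome is attached, separase then cuts the ties between sister chromatids, and the midzone machinery pinches the cell in 2. Most of these genes are transcribed late in the cell cycle, when the DREAM complex leaves their promoters and the B-Myb and FoxM1 factors act there. The tubules of the adult kidney divide rarely and re-enter the cycle after injury, and leukocytes that enter the tissue can divide as well.

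Between 43016 and 46248 of 61657 probes were well above background on each array, and Pearson correlations across features, which are not independent replicates, were from 0.985 to 0.9946 between arrays. The 3 controls and NDMA animal 1 shared slide 1, and NDMA animals 2 and 3 were on slide 2, scanned on another day. Kidney markers were present: the summed signal of 7 proximal tubule genes, among them the megalin gene Lrp2 and the phosphate transporter gene Slc34a1, was at least 102300% of the 75th percentile of its array in each animal.

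Mitosis genes were higher after NDMA. Of the 34 measured genes 21 rose, 0 fell and 13 did not pass the test (limma, adjusted p under 0.05), a share of 61.8% raised, where 2.52% of all 31915 features tested rose and 0.476% fell. The difference was above 0 for 33 of the 34, against 41.3% of all features, and its median was 1.29 on the log2 scale (2.44-fold), against -0.045 over all features. In 32 members each NDMA animal lay above each control, which held for 11.1% of all features. Cenpn and the phosphatase gene Cdc25b were the 2 members whose groups overlapped. At an unadjusted p under 0.05, 31 of the 34 were higher, as were 8.50% of all features. The differences of the 21 that rose ran from 1.02 for Dlgap5 to 2.79 for Pimreg. Aurkb, which rose, and Hmmr, which did not pass, met the filter on dim spots only through the NDMA arrays, which favours a higher value there. Members were chosen with earlier results of these data known, so these shares are a description and no test of the group.

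**Figure D1:**
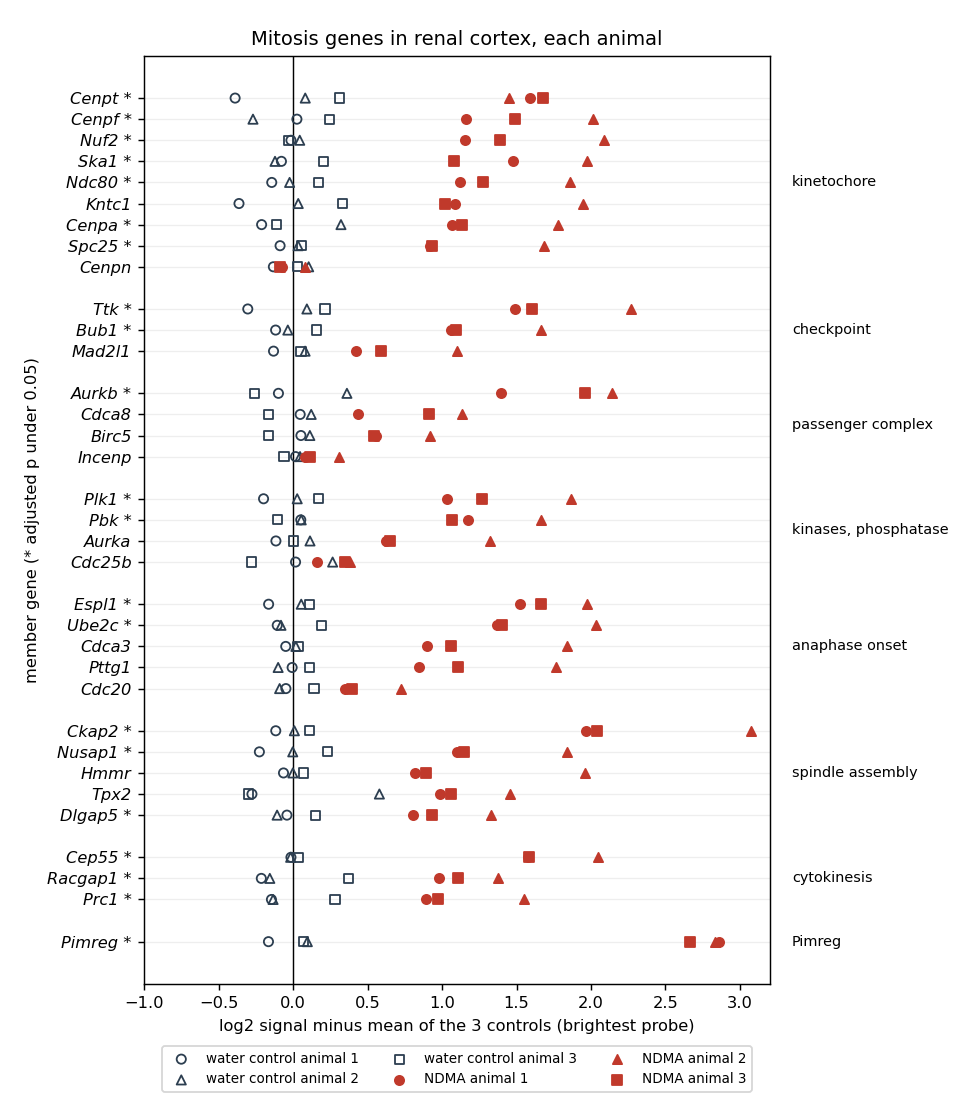
Signal of each measured member in each animal, by its brightest probe, as log2 difference from the mean of the 3 controls (x axis), grouped by role; open symbols are water controls, filled symbols NDMA animals, and an asterisk marks an adjusted p under 0.05. The NDMA symbols lie to the right of the controls in 32 of the 34 rows, with animal 2 (triangles) farthest right in 32.

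The calls depended on the number of animals and on the slide. With the slide as a block, a fit that takes the difference from NDMA animal 1 against the 3 controls on the same slide, the median difference of the members was 1.05 and 1 of the 21 calls, that of Pimreg, was kept, where 0.185% of all features rose. The number that rose was 4, 6 and 8 without control 1, 2 and 3, and 17, 19 and 7 without NDMA animal 1, 2 and 3, while the median stayed between 1.07 and 1.44. The share of all features that rose was also below 2.52% in these fits. It was 1.05%, 1.53% and 1.45% without control 1, 2 and 3, and 1.93%, 1.32% and 1% without NDMA animal 1, 2 and 3.

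**Figure D2:**
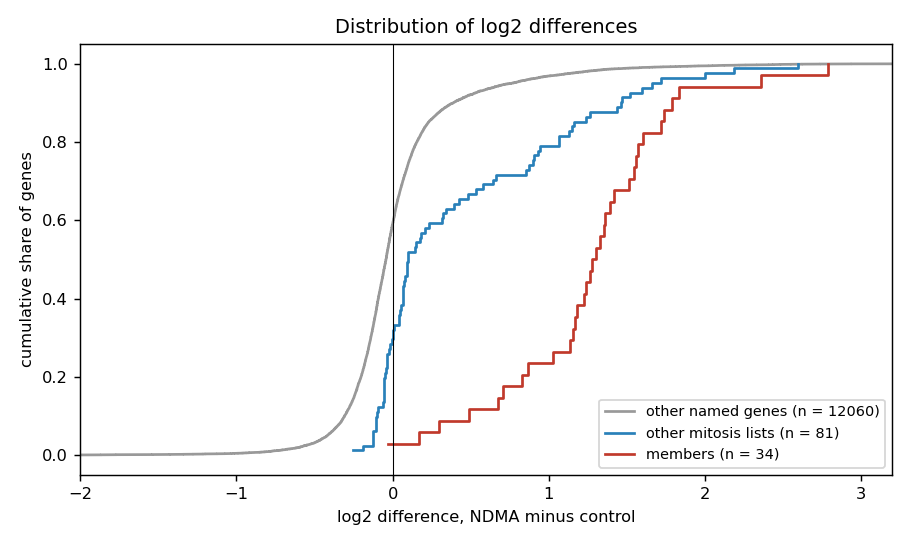
Cumulative share of genes (y axis) with a log2 difference, NDMA minus control, up to the value on the x axis, for the 34 measured members, the 81 measured genes of other mitosis lists and the remaining named genes. The members' curve crosses its middle at 1.29, whereas the other mitosis genes have a median of 0.10 and all named genes one of -0.04.

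Promoters are shown because the members moved together and because genes of this phase of the cell cycle are known to carry 2 short promoter elements: the CHR (cell cycle genes homology region), bound by the DREAM and B-Myb-MuvB complexes, and the CCAAT box, bound by NF-Y. RefSeq promoters of rat assembly GRCr8, 250 bases before to 50 after the annotated start of 1 transcript, were held for 36 of the 44 members. The CHR, searched as TTTGAA or TTCGAA on both strands, was found in 28 of the 36 (77.8%), against 19.7% of all 33469 promoters of this length. CCAAT on either strand was in 27 (75%), against 37.5%, and both were in 22 (61.1%), against 7.95%. A CHR and a CCAAT match shared 1 base in Cdca8 and in Mki67. The E2F octamers TTTCCCGC, TTTGGCGC, TTTCGCGC and TTTGCCGC were in 0 of the 36, and in 2.14% of all promoters. The CHR was found in 13 of the 15 raised members with a promoter entry and in 9 of the 11 measured members that did not pass. Measured members without a CHR match were Aurka, Bub1, Cdca3 and Dlgap5, of which Bub1 and Dlgap5 rose. A match is a run of letters and not a shown binding site.

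The first pair of stretches covers the 130 bases before the start of Ckap2, the member with the largest rise among those with a promoter entry (chr16:76541984-76542113, plus strand), and of Cdc20, which did not pass (chr5:137255800-137255929, minus strand); capitals mark CHR and CCAAT matches, and ATTGG is CCAAT on the other strand.
Ckap2: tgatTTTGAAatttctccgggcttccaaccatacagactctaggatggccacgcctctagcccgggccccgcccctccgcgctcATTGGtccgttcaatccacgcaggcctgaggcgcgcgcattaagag
Cdc20: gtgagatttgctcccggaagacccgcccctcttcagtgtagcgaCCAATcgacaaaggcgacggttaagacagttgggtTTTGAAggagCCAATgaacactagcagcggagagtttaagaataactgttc
Below are 30 bases around the CHR match nearest the start, in capitals, for 6 members that rose and, last, for Cdc25b and Cenpn, which did not; TTCAAA is TTTGAA on the other strand. They lie at chr8:93634631-93634660 (plus), chr1:245245304-245245333 (plus), chr7:135302621-135302650 (plus), chr13:103760867-103760896 (minus), chr13:84255552-84255581 (minus), chr3:74396758-74396787 (minus), chr3:138860125-138860154 (plus) and chr19:61880541-61880570 (plus), in the order printed.
Ttk: gcagcggggaaaTTCAAAcgtgtttccgga
Cep55: gcagccgcgggaTTCAAActcccggaagcg
Espl1: ccactagagataTTTGAAaggaggtgctgg
Cenpf: ggccgcgggcagTTTGAAtcgctcgtgctg
Nuf2: aaaggcggctggTTTGAAaagtgacaacgg
Spc25: ggcgctccggagTTTGAAattgaaagtcgg
Cdc25b: ccgctgttatttTTCGAAtatataaggagg
Cenpn: gccattggcggcTTCGAAagcgcctcggcg
Cdc25b and Cenpn were the 2 measured members whose CHR has the TTCGAA form. The TTTGAA form was in the 13 raised members with a CHR and also in 7 of the 9 with one that did not pass, among them Cdc20, Pttg1 and Mad2l1, so the 2 printed do not stand for that group. Of 34 CHR matches in member promoters, 23 lay before the start, 30 lay within 130 bases before to 50 after it, and 26 read TTTGAA or TTCGAA on the gene's own strand. Since TTCGAA reads the same on both strands, each of its matches counts as the gene's own, and only the strand of TTTGAA matches is informative.

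**Figure D3:**
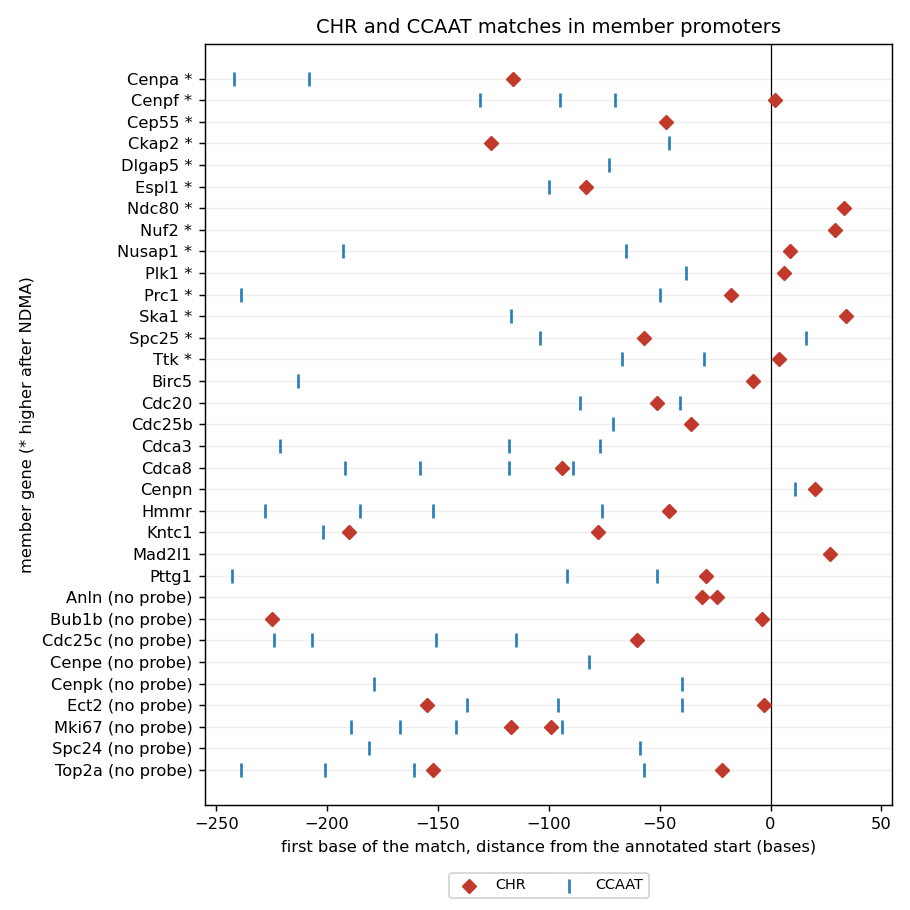
Position of each CHR (red diamonds) and CCAAT (blue bars) match in the promoters of members, as the distance in bases of its first letter from the annotated start (x axis, 0 is the start); 3 of the 36 promoters had neither match and are not drawn. Every one of the 28 promoters with a CHR has a match between 130 bases before and 50 after the start, both among members that rose (asterisk) and those that did not pass.

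Of 9 measured kinetochore genes 7 rose and 0 fell, and the median log2 difference was 1.42. Signals below are given as a percentage of the 75th percentile of the intensities of the same array and are not comparable between genes, since each comes from its own probe. Cenpt, whose product bridges centromeric chromatin and the microtubule-binding Ndc80 complex, stood at 6.99%, 9.69% and 11.4% in controls 1 to 3 and at 27.6%, 25.0% and 29.4% in NDMA animals 1 to 3. The 3 treated animals were close to each other and all above the controls, a 2.97-fold rise (log2 1.57 ± 0.19 SE, n = 3 per group, limma adjusted p = 0.0129). Ndc80 and Nuf2 form the arm of the Ndc80 complex that grips the microtubule. Ndc80 stood at 16.2%, 17.6% and 20.1% in the controls and at 38.9%, 64.9% and 43.1% after NDMA (2.67-fold, 1.42 ± 0.21). For Nuf2 the controls were nearly equal, at 8.83%, 9.20% and 8.74%, and the NDMA animals were at 19.8%, 37.9% and 23.3% (2.91-fold, 1.54 ± 0.23). Spc25, from the other end of that complex, rose 2.26-fold (1.18 ± 0.22, adjusted p = 0.0453), and its call was lost with quantile normalisation (0.0509) and median scaling (0.0522). Ska1, a partner of Ndc80 on microtubules, rose 2.85-fold (1.51 ± 0.23), and Cenpf, a large protein of the outer kinetochore, 2.94-fold (1.56 ± 0.24).

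Cenpa, the histone variant that marks the centromere, had a low signal, with 2.14%, 3.09% and 2.29% in controls and 5.18%, 8.51% and 5.44% after NDMA (2.51-fold, 1.33 ± 0.23, adjusted p = 0.0409). With normexp background correction, which started from the raw median spot signal in place of the processed signal and added an offset of 50, differences of dim probes were smaller: 0.48 for Cenpa, 0.61 for Ska1, 0.80 for Cenpf and 0.90 for Cenpt, and the calls of Cenpa and Ska1 were lost (adjusted p = 0.0619 and 0.0713). Kntc1, the ROD subunit that carries checkpoint proteins to kinetochores, did not pass (1.35 ± 0.29, adjusted p = 0.0760), although its 3 NDMA values of 13.7%, 24.7% and 13.0% lay above the controls at 4.99% to 8.07%. Cenpn, which reads the Cenpa nucleosome, was the exception among the 34. It stood at 57.2%, 67.4% and 63.9% in controls and 59.4%, 66.3% and 59.1% after NDMA (-0.027 ± 0.10, adjusted p = 0.906). Both groups covered the same range, and the 3 Cenpn probes had differences of -0.027, 0.026 and 0.085.

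Of 3 measured genes of the spindle checkpoint, 2 rose. Ttk, the MPS1 kinase that starts checkpoint signalling, stood at 12.1%, 15.9% and 17.3% in controls and 41.9%, 71.9% and 45.5% after NDMA, a 3.45-fold rise (1.79 ± 0.24, adjusted p = 0.0180). Bub1, a kinase of the unattached kinetochore, rose 2.42-fold (1.27 ± 0.18, adjusted p = 0.0225), from between 21.3% and 25.8% to 48.3%, 73.5% and 49.4%. Mad2l1, the protein that binds and holds Cdc20, differed by 0.70 ± 0.18 (1.63-fold) and did not pass (adjusted p = 0.121). Its NDMA values of 32.5%, 52.1% and 36.5% did not reach down to the highest control at 25.7%.

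The chromosomal passenger complex, made of the kinase Aurkb with Incenp, survivin (Birc5) and borealin (Cdca8), moved unequally: 1 of its 4 genes rose and the median was 0.75. Aurkb stood at 1.68%, 2.30% and 1.50% in controls, where 2 of 3 arrays were well above background, and at 4.72%, 7.91% and 6.99% after NDMA. The rise was 3.56-fold (1.83 ± 0.24, adjusted p = 0.0172), and 0.53 with normexp (adjusted p = 0.0547). Cdca8 differed by 0.83 ± 0.19 and Birc5 by 0.67 ± 0.14, with adjusted p of 0.0889 and 0.0642. Incenp, the scaffold of the complex, differed by 0.17 ± 0.09 (adjusted p = 0.381), from 209%, 214% and 199% to 219%, 256% and 225%. Its groups did not overlap, but the gap was smaller than the spread within the treated group.

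Among mitotic kinases and the phosphatase, Plk1 and Pbk rose and Aurka and Cdc25b did not pass. Plk1, the polo-like kinase of mitotic entry and spindle poles, stood at 61.1%, 71.5% and 79.0% in controls and 143%, 256% and 169% after NDMA (2.62-fold, 1.39 ± 0.23, adjusted p = 0.0324). Pbk, a mitotic kinase, rose 2.47-fold (1.30 ± 0.17). Aurka, the kinase of spindle poles, had 51.2%, 60.0% and 55.6% against 85.5%, 139% and 87.2% (0.87 ± 0.20, adjusted p = 0.0893). Cdc25b, a phosphatase that activates the mitotic cyclin-dependent kinase and is also expressed outside mitosis, overlapped between the groups, with 56.9% to 83.1% in controls and 77.1% to 89.9% after NDMA (0.29 ± 0.15, adjusted p = 0.353).

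Of 5 genes grouped under the onset of anaphase, with Cdca3 included as a substrate of the anaphase-promoting complex, 2 rose. All 5 lay above the controls in each NDMA animal, as did 11.1% of all features. Espl1, the separase that cleaves cohesin, stood at 14.7%, 17.1% and 17.8% in controls and 47.3%, 64.6% and 52.3% after NDMA. This 3.30-fold rise (1.72 ± 0.14, adjusted p = 0.00669) passed in each of the 6 fits that left 1 animal out. Ube2c, which passes ubiquitin to substrates of the anaphase-promoting complex, rose 3.03-fold (1.60 ± 0.20). Pttg1, the securin that inhibits separase, had 137%, 128% and 148% in controls and 246%, 467% and 296% after NDMA (1.24 ± 0.23), and missed the threshold narrowly (adjusted p = 0.0502). Cdca3, a gene of mitotic entry whose product is degraded by that complex, differed by 1.27 ± 0.24 (adjusted p = 0.0524). Both passed with normexp, at adjusted p of 0.0334 for Pttg1 and 0.0307 for Cdca3, and with a trended and robust variance. Cdc20, the activator of the complex whose promoter is printed above, differed by only 0.49 ± 0.13 (1.40-fold, adjusted p = 0.128), with 70.6%, 68.6% and 80.6% against 92.8%, 121% and 96.1%.

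Of 5 spindle assembly genes, 3 rose, with a median of 1.22. Ckap2, a microtubule-binding protein of the spindle, rose 5.13-fold (2.36 ± 0.30, adjusted p = 0.0148). It stood at 27.5%, 30.0% and 32.2% in controls and 116%, 251% and 122% after NDMA, so that animal 2 was about as far above the other treated animals as its log2 difference of 1.07 from their mean states. Nusap1, which bundles spindle microtubules near chromosomes, rose 2.57-fold (1.36 ± 0.23), and Dlgap5, a stabiliser of kinetochore fibres, 2.03-fold (1.02 ± 0.16). Tpx2, which activates Aurka and nucleates microtubules, did not pass (1.17 ± 0.27, adjusted p = 0.0862); control 2 stood at 12.9%, against 7.13% and 7.01% in the other controls and 17.1%, 23.7% and 18.0% after NDMA. Without control 2, its highest control, it did (1.46, limma adjusted p = 0.0263). That fit removes the value that narrowed the difference, so it adds no support. Hmmr, a spindle and hyaluronan-binding protein, was well above background on 1 control array (1.22 ± 0.30, adjusted p = 0.106, and 0.30 with normexp).

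The 3 measured genes of cytokinesis all rose. Cep55, which recruits the abscission machinery to the midbody, had almost the same value in the 3 controls, 11.2%, 11.2% and 11.6%, and stood at 33.7%, 46.9% and 33.9% after NDMA. The rise was 3.33-fold (1.74 ± 0.14, adjusted p = 0.00661) and passed whichever single animal was left out. Racgap1, a subunit of centralspindlin, rose 2.23-fold (1.16 ± 0.19), and Prc1, which bundles midzone microtubules, 2.20-fold (1.14 ± 0.21, adjusted p = 0.0472). The Prc1 call was lost with quantile normalisation (0.0523) and median scaling (0.0508), and, like that of Cenpa, whichever single animal was left out.

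Pimreg, a mitotic regulator that interacts with the clathrin assembly protein Picalm, had the largest difference of the 34. Its signal was 2.18%, 2.61% and 2.57% in controls and 17.7%, 17.4% and 15.5% after NDMA, with little spread in either group. The rise was 6.90-fold (2.79 ± 0.11, adjusted p = 0.00175), and with normexp the log2 difference was 1.23 (adjusted p = 0.00222). When the slide entered the fit, Pimreg was the 1 member that still passed (2.86, adjusted p = 0.0269). Its other 2 probes did not pass the filter on dim spots, being above background on 0 control and 2 NDMA arrays each.

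Of 12 members with more than 1 probe that passed the filter, all probes had the same sign in 11, the exception being Cenpn. Of the 53 member probes that passed, 32 rose and 0 fell in the fit over probes, where 2.50% of 43118 probes rose and 0.485% fell. The 32 include the Aurkb probe and a Ttk probe, well above background on 2 and 0 control arrays. Both passed the filter only through the NDMA arrays, which favours a rise, so they add no support to this count. All probes rose in 7 of the 12 genes, Ttk with that probe among them. In Cenpf 2 of 4 probes and in Racgap1 1 of 3 passed, and in Aurka, Cdc25b and Cenpn 0 did. Of the 3 Ttk probes, 2 rose by 1.39 and 1.79; the other had no control array well above background, and its rise was at least 3.71-fold. A dim Cenpf probe likewise had 0 control arrays well above background; it stood at 13.3% in NDMA animal 1 against 3.85% and 2.56% in animals 2 and 3, a bound of at least 3.49-fold that did not pass (adjusted p over probes 0.0691). Such bounds divide the treated mean by a control mean in which a dim spot is lifted, on each array, to the lowest signal that any probe well above background had there.

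**Figure D4:**
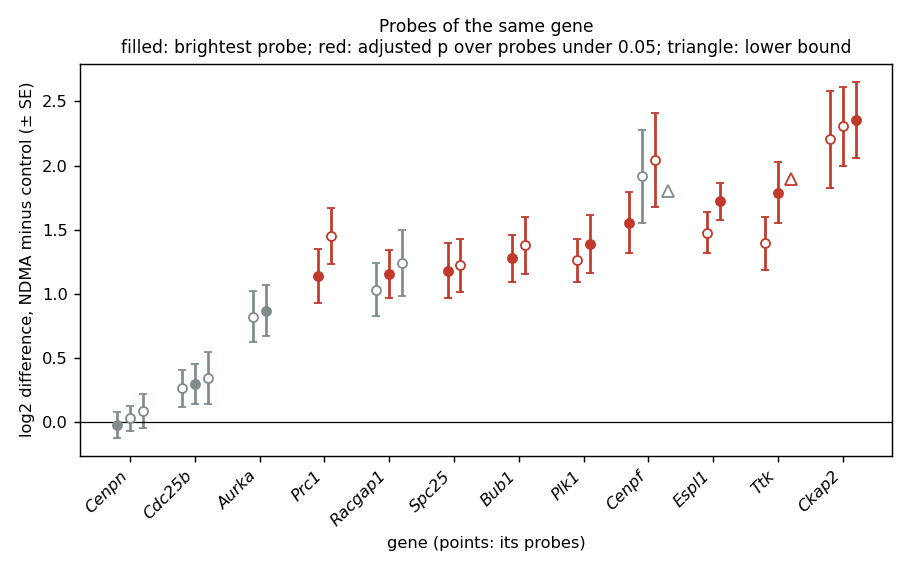
Log2 difference, NDMA minus control, with its moderated standard error (y axis), of every probe that passed the filter, for the 12 members with more than 1 such probe (x axis). Filled points are the brightest probe, used for the gene, and red points have an adjusted p over probes under 0.05; triangles are lower bounds for the 2 probes with no control array well above background. The points of each gene lie on the same side of 0 except those of Cenpn.

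The treated animals differed from each other in these genes more than in others. Over the members, the median standard deviation of log2 signals was 0.37 between NDMA animals and 0.15 between controls, where the corresponding medians over all features were 0.15 and 0.12. NDMA animal 2 was the highest of the 3 treated animals in 32 of 34 members, the exceptions being Cenpt and Pimreg, and in 33.8% of all features. Its log2 signal exceeded the mean of the other 2 by a median of 0.61 over the members, and by 1.11 for Hmmr and 1.07 for Ckap2. The median difference from the control mean was 1.05, 1.77 and 1.09 in NDMA animals 1 to 3. NDMA animal 1, hybridised on the controls' slide, exceeded every control in 32 of the 34 members, where 25.4% of all features did. Animals 2 and 3 did so in 33 each. Control 1 was the highest control in 0 members, control 2 in 13 and control 3 in 21.

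Outside the members, 119 other genes of mitosis without cyclins or kinesins were listed, of which 81 were measured. In them 10 rose and 0 fell, 12.3% against 2.52% of all features, and the median difference was 0.10. The lowest medians were -0.041, for 16 genes of the anaphase-promoting complex and its regulators, and 0.05, for cohesin and condensin. Of 17 listed genes of cohesin and condensin 12 were measured. In both lists 0 rose, which with so few genes is near the 2.52% of all features. Their largest differences, 0.855 and 1.716, did not pass in limma. The 1.716 came from a probe with 0 control arrays well above background, which passed the filter only through the NDMA arrays. Of 20 other kinetochore and checkpoint genes 3 rose, among them the centromere protein Cenpm (4.56-fold, 2.19 ± 0.22), Dsn1 of the Mis12 complex (2.87-fold, 1.52 ± 0.18) and the checkpoint scaffold Knl1 (2.71-fold, 1.44 ± 0.24). Of 13 spindle and centrosome genes 4 rose, including Gtse1, a microtubule-binding protein (6.03-fold, 2.59 ± 0.31), the astrin gene Spag5 (3.03-fold, 1.60 ± 0.22) and Tacc3 of kinetochore fibres (1.93-fold, 0.95 ± 0.14). Regulators of mitotic entry had 3 of 12 raised, with Pkmyt1, an inhibitory kinase of the mitotic cyclin-dependent kinase (2.40-fold, 1.26 ± 0.14), and the phosphatase Cdkn3 (1.91-fold, 0.93 ± 0.13). Of 8 further cytokinesis genes 0 rose in limma, a count also near the share of all features, and the median was 0.08. With normexp Cenpm, Dsn1, Knl1 and Gtse1 had differences of 0.90, 0.74, 0.82 and 1.27 and kept their calls. With the slide as a block 0 of the 10 passed in limma, with Cenpm at 1.91 (adjusted p = 0.10).

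Most markers of macrophages and T cells were also higher after NDMA. Of 10 measured markers in the macrophage list 8 rose and 0 fell, where 2.52% of all features rose and 0.476% fell. The 8 include Ptprc (2.45-fold), which other leukocytes express as well, while Adgre1 (1.11-fold) and Cd14 (1.28-fold) did not pass. The summed signal of the 10 was from 2794% to 3397% of the 75th percentile in controls and 6463%, 7017% and 7673% in NDMA animals 1 to 3. Such sums add signals that are not comparable between genes, so they mostly follow the brightest probes of a list. Of 8 T cell markers 6 rose, with sums of 152.6% to 209.9% against 486%, 557.1% and 566.5%. Neither sum was highest in animal 2. Of 7 proximal tubule markers 1 fell, Lrp2, at -0.57 ± 0.10 (adjusted p = 0.0448), and the sum was lowest in animal 2, at 102300% against 118800% and 115500% in animals 1 and 3 and 134800% to 142500% in controls. Other lists went either way in animal 2: the sum of the collecting duct markers, of which 0 of 4 passed, was its lowest there (10240%, against 13340% and 12710% in animals 1 and 3), while those of thick limb, distal tubule, podocyte and fibroblast markers were highest there, with 0 markers of each passing in limma. Among neutrophil markers the elastase gene Elane was not above background in either group, and 0 of 2 measured passed. The sum of those 2 was highest in animal 2 (66.8%, against 41.1% and 62.4% in animals 1 and 3). Controls ranged from 27.4% to 116.9%. Hepatocyte markers, with 0 of 3 passing, had their lowest sum in animal 2 (884.7%, 11.4% and 60.2% in NDMA animals 1 to 3). Their controls ranged from 7.56% to 188.2%. B cell markers had 0 of 3 measured passing. With so few genes, counts of 0 in these lists are near the shares of all features. Of 4 mast cell markers 2 rose, with a sum of 29.4% to 35.7% in controls and 103.8%, 43.5% and 101.4% in NDMA animals 1 to 3. Of the 2, Cma1 was not well above background on any control array. It passed the filter only through the NDMA arrays, which favours a rise, so it adds no support. The part of all these cell types in the higher mitosis genes was not tested.

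**Figure D5:**
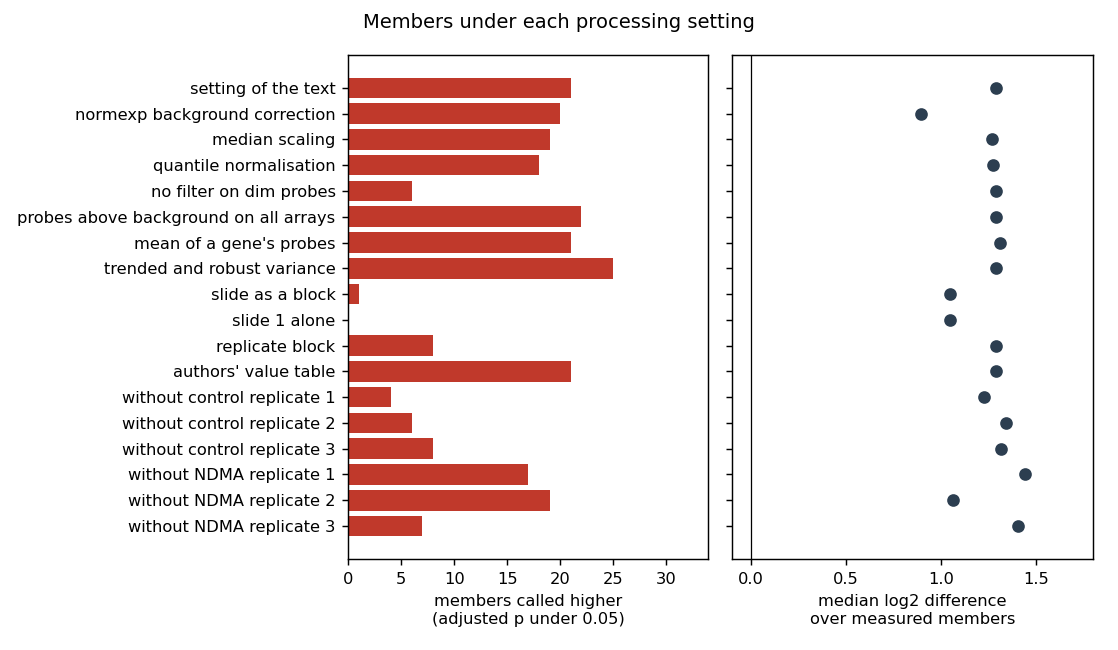
Number of members called higher (left, bars) and median log2 difference over the measured members (right, points) under each processing setting. The number ranges from 0 on slide 1 alone to 25 with a trended and robust variance, while the median stays between 0.89 and 1.44.

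The median remained positive in each of the 18 settings and the count of calls moved widely. In fits on fewer arrays or with a block a positive median was fixed in advance, since in 32 members the groups did not overlap. Without the filter on dim probes, which raised the number of features tested to 45877, 6 members rose, all among the 21, as did 0.765% of all features. Restricted to probes above background on all 6 arrays, 22 of 32 measured members rose, of which 20 were among the 21, and 2.34% of all features rose. The 4 arrays of slide 1 alone set a single NDMA animal against 3 controls, with 2 residual degrees of freedom, and that animal is assumed to vary like the controls. There 0 members and 0 features passed in limma; at an unadjusted p under 0.05, 28 members and 6.09% of all features were higher.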

How the data were processed

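The authors read the scanned spots with Agilent Feature Extraction; the submitters' processing notes give version 10.7 and the arrays' own headers 10.7.1.1. What they deposited as processed signal is an intensity after background subtraction and spatial detrending within each array, per the file headers. The authors' deposited value table is a linear ratio that matched the processed intensity over its array's 75th percentile (largest log2 difference 0.00174 for values above 0.1), with column medians of 0.110 to 0.115.

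Intensities were taken to log2 minus the array's 75th percentile over 61657 non-control probes; 0 member spots were flagged as outliers. The filter kept 43118 probes, those well above background on each array of 1 or both groups. A gene was read by its brightest probe and named by RefSeq accession (27348 of 29123 NM probes matched), which left 31915 features.

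The test was limma 3.58.1 (R 4.3.3): lmFit and eBayes without covariates, two-sided, Benjamini-Hochberg over all features, with 4 residual degrees of freedom and 2.36 from the prior. The script was tested on simulated data. The labels' protocols give 3 animals to each group and the design text calls the replicates biological, so each array was taken as 1 animal. An exact test of 3 against 3 cannot go below p = 0.1. Members and lists were chosen with earlier results of these data known; all members are named, and of other mitosis genes the 8 with the smallest p. The number of arrays limits the precision.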

Additional observations from a re-analysis of the deposited data

How the results depend on the processing

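In the main setting 21 members, 32 member probes and 10 other mitosis genes rose, and over all features 805 rose and 152 fell. Without a filter on dim probes these were 6, 9, 5, 351 and 20. With the slide as a block they were 1, 2, 0, 59 and 8, and on slide 1 alone 0 in each case in limma. Features that fell numbered 363 with normexp and 289 with a trended and robust variance. With the replicate number as a block, 8 members, 13 member probes and 3 other mitosis genes rose and 337 features rose and 14 fell. Deviations of animals with the same number correlated at 0.038, -0.048 and 0.025, and those of other pairs at -0.097 to 0.075. Such correlations cannot show whether animals of the same number were matched, and no pairing was used. Leaving out 1 animal gave 4 to 19 members, 6 to 27 member probes and 2 to 9 other mitosis genes that rose, and 320 to 617 features that rose and 28 to 132 that fell. Of the 21 calls, 3 (Espl1, Cep55 and Pimreg) held in each of the 6 fits. Those of Cenpf, Spc25, Nusap1 and Racgap1 held in 1 fit each, and those of Cenpa and Prc1 in 0. No member fell in limma in the settings run. The 33 members other than Cenpn were above 0 wherever they were measured, in 18 settings or, for Aurkb and Hmmr, in 17, since these lacked a probe above background on all arrays. For the 32 members whose groups did not overlap, the sign could not turn when an animal was left out or a block was added. Those fits are therefore no further support for it. Cenpn turned to 0.016 with normexp, 0.028 with the mean of a gene's probes, 0.025 without control 2 and 0.002 without NDMA animal 3, within a range of -0.093 to 0.025 over the fits without 1 animal. Low signals near background limit what normexp and the filter settings can tell.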
